A study of Mus musculus with 2 samples.

Results

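A set of 9 genes for the receptors, carriers and synthesis of retinoic acid was followed here in hypomethylated mouse embryonic fibroblasts (MEFs). They are the 3 retinoic acid receptors (Rara, Rarb and Rarg), the 2 cellular retinoic acid binding proteins (Crabp1 and Crabp2), the retinol carrier Rbp4 and the 3 retinaldehyde dehydrogenases (Aldh1a1, Aldh1a2 and Aldh1a3). The members were found by gene symbol, whatever their status, and each of the 9 had 1 entry among the 29126 entries of the deposited table. Each genotype, Dnmt1+/+ and Dnmt1-/-, is represented by a single strand-specific mRNA-seq library from cultured cells of unknown strain. In the Dnmt1-/- cells both copies of Dnmt1, the gene of the enzyme that maintains DNA methylation, are a hypomorphic allele, and the cells of both genotypes are also null for trp53, so that the control is a trp53-null line with intact Dnmt1. The comparison asks how RNA levels differ when DNA methylation is severely reduced. Each genotype is 1 cell line and 1 library, so that genotype, cell line and library cannot be told apart, and no difference below has a replicate check, an error or a p-value.

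Vitamin A circulates as retinol bound to RBP4 and is oxidised inside cells, first to retinaldehyde and then, irreversibly, to retinoic acid by the ALDH1A enzymes. Retinoic acid is carried in the cytoplasm by CRABP1 and CRABP2 and is cleared by CYP26 enzymes. In the nucleus it binds RAR proteins, which sit on DNA as heterodimers with RXR proteins and switch target genes from repressed to active. Fibroblasts of the embryo are well known both as sources of retinoic acid and as cells that respond to it.

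Levels are given as RPKM, in which reads are corrected for transcript length and for library size, so that levels can be compared between genes. Changes are the Dnmt1-/- minus the Dnmt1+/+ value of log2(RPKM + 0.1), and this offset makes changes at low RPKM look smaller than they are. A gene was counted as higher or lower if it changed more than 2-fold on this scale, had the status OK and a symbol, and had at least 1 RPKM in either library, as 11244 genes did. Their median change was -0.14. The files hold no read counts, so the depth behind a value is unknown, no counting error or detection limit is given, and a gene without signal is called listed at 0.

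Some facts of the whole series touch the results. Dnmt1 itself was at 65.2 RPKM in Dnmt1+/+ and at 14.5 RPKM in Dnmt1-/- MEFs. Of 12 fibroblast markers, 11 reached 1 RPKM in Dnmt1+/+ and 10 in Dnmt1-/-, with a summed RPKM of 6468 and 4994. In Dnmt1-/-, 2 of the 11 passed 2-fold upwards (Pdgfra and S100a4), 4 downwards (Col1a2, Fn1, Thy1 and Postn) and 5 stayed within it, and Lum was under 0.1 RPKM in both libraries. Xist was at 0.00648 RPKM in Dnmt1+/+ and at 37.0 RPKM in Dnmt1-/-, while the 4 Y-linked genes examined went from between 3.71 and 18.8 RPKM to between 0 and 0.0135 RPKM, so the libraries differ in more than Dnmt1. None of 16 genes that every cell uses was listed at 0, and 15 of them stayed within 2-fold. The other was Actb, at 1759 RPKM in Dnmt1+/+ and 3779 RPKM in Dnmt1-/-. Markers of endothelium stayed under 1 RPKM in both libraries. The blood markers Cd68 and Csf1r rose to 3.63 and 6.08 RPKM in Dnmt1-/-, whereas Ptprc, which defines blood cells, was listed at 0 in both. Of 6 epithelial markers, Krt19 fell from 6.90 to 0.326 RPKM and the other 5, Krt8 and Krt18 among them, were under 1 RPKM in both libraries, so that the summed RPKM of the list was 7.19 and 1.08. The part of these differences in the results below was not tested.

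Of the 9 retinoid genes, 5 passed the minimum of 1 RPKM. Of these 5, 2 were more than 2-fold lower in Dnmt1-/- MEFs (Crabp1 and Aldh1a1), 0 were more than 2-fold higher, and Rara, Rarg and Crabp2 stayed within 2-fold. Among all genes kept, 10.9% passed 2-fold downwards and 8.47% upwards. The median change of the 5 was -0.83, against -0.14 over all genes kept. Rarb, Rbp4, Aldh1a2 and Aldh1a3 remained under 1 RPKM in both libraries and were not counted. Aldh1a1 passed only through the Dnmt1+/+ library, where it was higher, so its fall is in part fixed by the minimum, whereas the other 4 were above 1 RPKM in both libraries. The summed RPKM of the 9 genes was 228.7 in Dnmt1+/+ and 84.4 in Dnmt1-/-, and without Crabp1 it was 99.2 and 75.8. The gap between the sums was therefore mostly Crabp1.

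**Figure D1:**
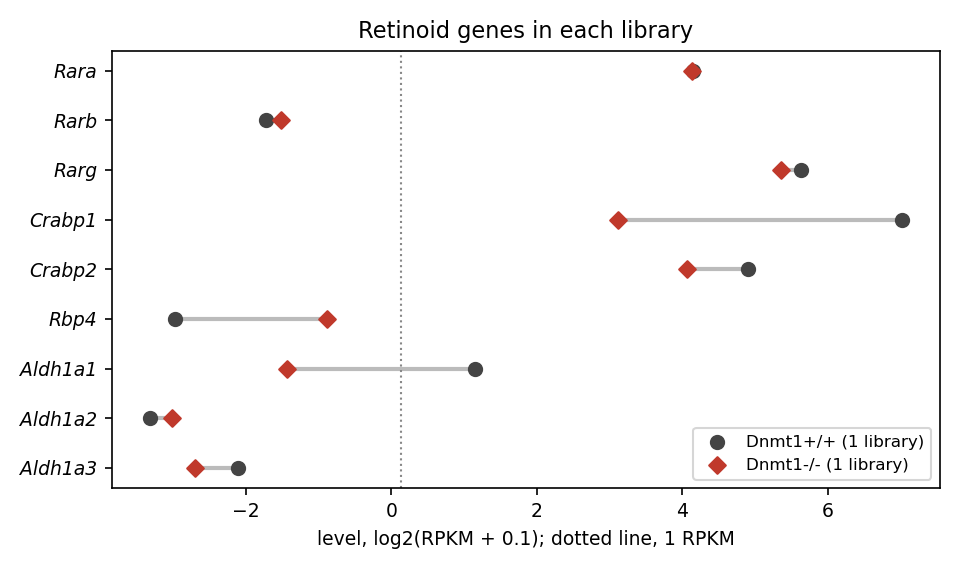
Level of each of the 9 retinoid genes on the log2(RPKM + 0.1) axis, with a dot for the Dnmt1+/+ library and a diamond for the Dnmt1-/- library, and a dotted line at 1 RPKM. The longest bars belong to Crabp1, from 129.5 to 8.56 RPKM, and Aldh1a1, from 2.12 to 0.271 RPKM, while the markers of Rara nearly coincide.

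The receptors differed little between the libraries. Rarg, the receptor most abundant in these cells and known for its role in mesenchyme and skin, was at 49.4 RPKM in Dnmt1+/+ and 40.8 RPKM in Dnmt1-/- MEFs. Its change of -0.28 lay close to the median of all genes. Rara, the most widely expressed of the receptors, was at 17.5 RPKM in Dnmt1+/+ and 17.4 RPKM in Dnmt1-/-, a change of -0.01. Neither gene passed 2-fold under any of the 6 scalings and pseudocounts tried, although the small change of Rara turned positive under all 3 scalings, to 0.01, 0.03 and, where the median change was subtracted, 0.13. Rarb, a receptor whose own gene is switched on by retinoic acid, was at 0.202 RPKM in Dnmt1+/+ and 0.249 RPKM in Dnmt1-/- and so stayed far below the other receptors in both libraries.

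The make-up of the receptor RNA was likewise similar. Rarg contributed 73.6% of the summed RPKM of the 3 receptors in Dnmt1+/+ and 69.8% in Dnmt1-/- MEFs. The share of Rara was 26.1% and 29.8%, and that of Rarb 0.301% and 0.426%. The order Rarg, Rara, Rarb was thus the same in both libraries, and since these shares are taken within a library, they do not depend on how the libraries were scaled to each other.

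The Rarb promoter is shown because the classic retinoic acid response element of this gene lies in it, and because Rarb stayed low in both libraries. Such an element is a direct repeat of a hexamer on which an RAR and RXR pair sits. The 250 bases upstream of the RefSeq start site nearest to the deposited entry were located by exact match on the minus strand of mm9, at chr14:17407991-17408240, and the start site lies 266 bp from the 5′ end of the entry. They are written from 5′ to 3′ on the strand of the gene, with the repeat in capitals.
Rarb: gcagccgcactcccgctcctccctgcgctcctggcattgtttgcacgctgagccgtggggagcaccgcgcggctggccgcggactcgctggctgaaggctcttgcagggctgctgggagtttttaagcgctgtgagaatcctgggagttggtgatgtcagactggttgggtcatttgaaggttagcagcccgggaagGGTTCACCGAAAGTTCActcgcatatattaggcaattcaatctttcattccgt
The repeat consists of GGTTCA and AGTTCA separated by 5 bases (ccgaa), and it begins 53 bases before the start site. Direct repeats of any of 4 hexamers, namely AGGTCA (the consensus), AGTTCA (found here), GGGTCA (a variant) and GGTTCA (found here), were searched on both strands, with overlaps between matches allowed, in windows from 250 bases before to 50 bases after RefSeq start sites. With a spacer of 5 bases they were found in 32 of 32851 windows (0.0974%). Of the 13 windows in the table for the members, which cover 7 of the 9 genes, this was the one window with such a repeat, and none held a repeat with a spacer of 1 or 2 bases. A match of letters does not show that a receptor bound there.

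The 2 cellular retinoic acid binding proteins were both lower in Dnmt1-/- MEFs, but by unlike amounts. Crabp1, which binds retinoic acid in the cytoplasm and is known to mark mesenchyme and neural crest of the embryo, was at 129.5 RPKM in Dnmt1+/+ and at 8.56 RPKM in Dnmt1-/- MEFs. This is a 15.1-fold lower level and a change of -3.90. In Dnmt1+/+ it was the highest of the 9 members, and only 451 of the 11244 genes kept had a higher RPKM. In Dnmt1-/- it was the fourth highest, below Rarg, Rara and Crabp2, and 6192 genes had a higher RPKM. The change of Crabp1 was exceeded downwards by 113 of the genes kept. Among the 627 genes with at least 100 RPKM in Dnmt1+/+, 32 were more than 2-fold lower in Dnmt1-/- and 2 fell further than Crabp1. Of genes whose higher RPKM was above 20, 5.37% were more than 2-fold lower. Over the 6 alternative scalings and pseudocounts the change of Crabp1 stayed between -3.92 and -3.76.

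Crabp2, which delivers retinoic acid to the receptors in the nucleus, was at 29.8 RPKM in Dnmt1+/+ and 16.7 RPKM in Dnmt1-/- MEFs. The change of -0.83 did not reach 2-fold, and 15.0% of the genes kept had a lower one. The binding proteins therefore exchanged their order. In Dnmt1+/+ the RPKM of Crabp1 was 4.35 times that of Crabp2, with 81.3% of their sum, and in Dnmt1-/- it was 0.514 times that of Crabp2, with 33.9% of their sum. This ratio within a library fell 8.46-fold. The summed RPKM of the binding proteins was 2.37 times that of the receptors in Dnmt1+/+ and 0.432 times in Dnmt1-/-.

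**Figure D2:**
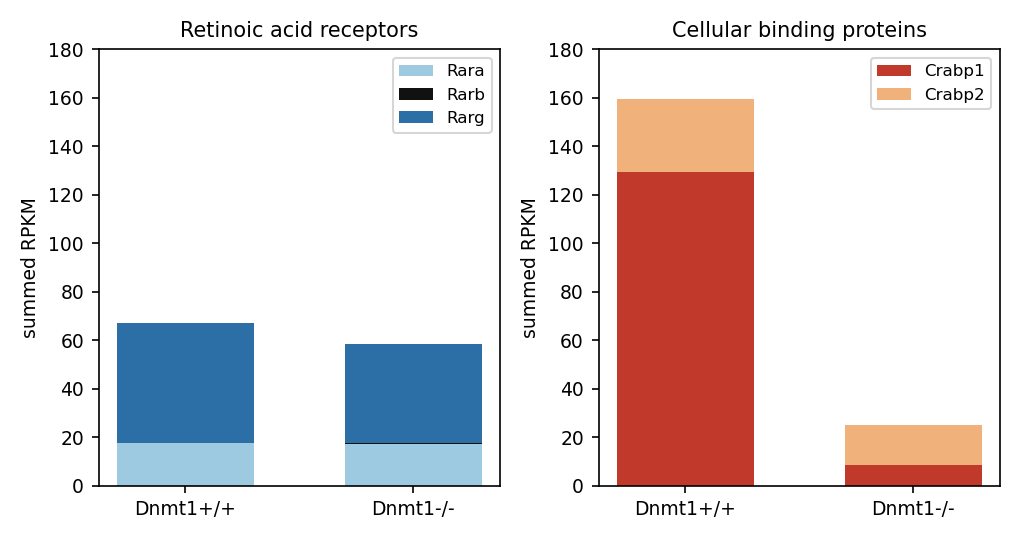
Stacked bars of RPKM from 0 for the retinoic acid receptors (left) and the cellular retinoic acid binding proteins (right), with 1 bar for each library. The receptor sum was 67.1 RPKM in Dnmt1+/+ and 58.4 RPKM in Dnmt1-/-, while the binding protein sum went from 159.3 to 25.2 RPKM, mostly through Crabp1.

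Most members can be told apart from other genes by reads of 50 bp, and Aldh1a1 is the exception. No 50-base stretch of the annotated protein-coding transcripts of Crabp1, Crabp2, Rarb, Rarg, Rbp4, Aldh1a2 or Aldh1a3 was found in a transcript of another gene, and for Rara it was 0.201% of them. With up to 2 mismatches allowed, none of Crabp1 matched Crabp2, and none matched between the receptors. No other entry overlapped the Crabp1 or the Crabp2 locus. The Rarg locus was overlapped by 1 entry without a symbol, which reached 16.4 RPKM, and its part in the value of Rarg was not tested. On either side of Crabp1, at chr9:54612555-54620916 of mm9, the nearest entries with a symbol and status OK are Wdr61 and Ireb2. Wdr61, 30.2 kb away, changed by -0.21, and Ireb2, 90.6 kb away, by -1.06. Next along, Agphd1 changed by -0.78 but was under 1 RPKM in both libraries. Dnaja4 alone was higher, by 2.68, from 0.641 to 4.65 RPKM. It passed the minimum only through the Dnmt1-/- library, so its direction was in part fixed by it.

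The retinaldehyde dehydrogenases were at low levels. Aldh1a1, which makes retinoic acid and is also known from stem and progenitor cells, was at 2.12 RPKM in Dnmt1+/+ and at 0.271 RPKM in Dnmt1-/- MEFs, a change of -2.58. It was lower in Dnmt1-/- under all 6 scalings and pseudocounts, between -2.97 and -1.30, and past 2-fold in each. Among genes whose higher RPKM was from 1 to 5, 35.8% changed more than 2-fold, and 537 of these 2690 genes did so downwards. A fall past 2-fold was therefore common at this level. The fall of Aldh1a1 was larger than that, and 2.40% of all genes kept, whatever their level, had a lower change. How many genes at its own level fell as far was not counted. Aldh1a2, the main source of retinoic acid in the early embryo, was listed at 0 in Dnmt1+/+ and was at 0.0242 RPKM in Dnmt1-/-. Aldh1a3, known from the developing eye and nose, was at 0.132 RPKM in Dnmt1+/+ and 0.0547 RPKM in Dnmt1-/-. No direction is given for Aldh1a2 and Aldh1a3, which stayed far under 1 RPKM. In sum the enzymes had 2.25 RPKM in Dnmt1+/+ and 0.350 RPKM in Dnmt1-/-, of which Aldh1a1 made up 94.2% and 77.4%.

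Aldh1a1 is not fully separable from its neighbour Aldh1a7, which lies 49.5 kb away on chromosome 19 and encodes a closely related enzyme. The transcripts share 7.53% of the 50-base stretches of Aldh1a1 exactly and 30.9% with up to 2 mismatches, so reads could have been assigned to either gene. Aldh1a7 was at 5.45 RPKM in Dnmt1+/+ and 0.124 RPKM in Dnmt1-/- MEFs. Added together, the pair was at 7.57 RPKM in Dnmt1+/+ and 0.395 RPKM in Dnmt1-/-, and how the shared reads were counted was not stated. On the side away from Aldh1a7, E030003E18Rik, 45.6 kb from Aldh1a1, was at 0.174 RPKM in Dnmt1+/+ and listed at 0 in Dnmt1-/-. Its change was -1.45, but it was under 1 RPKM in both libraries and was not counted. Farther from Aldh1a1, Anxa1, at 210.9 kb, changed by -0.61 and Zfand5, at 628.8 kb, by -0.53.

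Rbp4 encodes the protein that carries retinol in blood and is made mainly by liver and fat. It was at 0.0280 RPKM in Dnmt1+/+ and at 0.442 RPKM in Dnmt1-/- MEFs. The change was 2.08, but the gene was under the minimum in both libraries, and the value depended strongly on the pseudocount, from 0.49 with a pseudocount of 1 to 3.98 with none. Among entries under 1 RPKM in both libraries, 14.4% were more than 2-fold higher in Dnmt1-/- on this scale. Of 6 hepatocyte markers, Alb, Ahsg and Ttr, the partner of RBP4 in plasma, were listed at 0 in both libraries. Afp was at 0.0207 RPKM in Dnmt1+/+ and 0.346 RPKM in Dnmt1-/-, Apoa1 at 0.0298 and 0.0618 RPKM, and Apoa2 at 1.44 and 0.832 RPKM. Fabp4 and Pparg, which are abundant in fat cells, were at 0.459 and 1.30 RPKM in Dnmt1+/+ and at 6.74 and 5.79 RPKM in Dnmt1-/-, and whether they have a part in the value of Rbp4 was not tested.

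**Figure D3:**
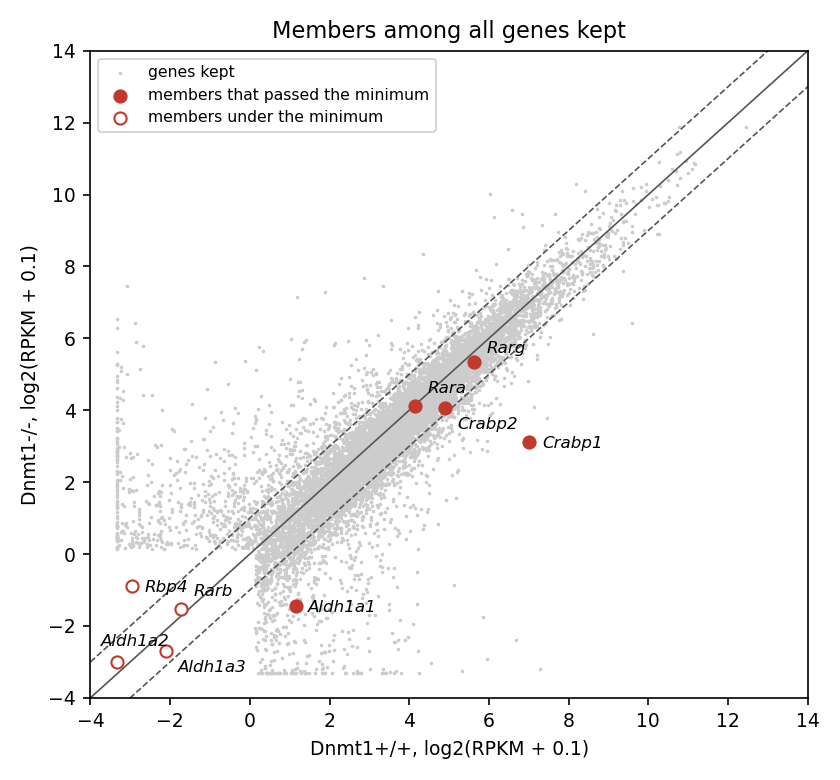
Level in Dnmt1-/- against level in Dnmt1+/+ MEFs, both as log2(RPKM + 0.1), for the 11244 genes kept (grey) and the 9 members (red, filled if they passed the minimum of 1 RPKM, open if not). The solid line marks equal levels and the dashed lines a 2-fold change, and Crabp1 and Aldh1a1 are the filled members outside them.

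As the study concerns DNA methylation, which falls on CpG dinucleotides, the promoters of the members were compared by their CpG count in the same windows of 300 bases, using for each gene the window nearest to the 5′ end of its entry. DNA methylation itself was not analysed here. The median over all 32851 windows was 7 CpGs. Aldh1a2 had 50, more than 99.1% of windows, and Rara had 20. Crabp1 and Rarb had 17 each, Rarg 12 and Rbp4 5, and Aldh1a1 had 1. Thus, by these nearest windows, the members counted as lower, Crabp1 and Aldh1a1, lay on opposite sides of the median. The receptors that stayed within 2-fold lay above it. Other RefSeq start sites of the same genes had other counts. There were 40 CpGs for Rbp4, at a site 510 bp from the 5′ end of its entry. Rara had 21, 5 and 6, Rarg 10 and Aldh1a1 3. Crabp2 and Aldh1a3 were not part of this comparison.

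The upstream 250 bases of Crabp1, Aldh1a1 and Aldh1a2 are shown to let these CpG contents be seen. They come from both members counted as lower and from the member with most CpGs. They lie on the plus strand of mm9 at chr9:54612305-54612554, chr19:20676208-20676457 and chr9:71063346-71063595, and hold 12, 1 and 40 CpGs. Each is written from 5′ to 3′ with its CpGs in capitals.
Crabp1: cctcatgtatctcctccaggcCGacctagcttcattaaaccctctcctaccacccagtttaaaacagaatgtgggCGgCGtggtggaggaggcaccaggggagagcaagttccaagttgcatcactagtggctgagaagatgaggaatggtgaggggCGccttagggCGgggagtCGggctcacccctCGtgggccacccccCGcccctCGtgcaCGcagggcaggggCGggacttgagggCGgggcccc
Aldh1a1: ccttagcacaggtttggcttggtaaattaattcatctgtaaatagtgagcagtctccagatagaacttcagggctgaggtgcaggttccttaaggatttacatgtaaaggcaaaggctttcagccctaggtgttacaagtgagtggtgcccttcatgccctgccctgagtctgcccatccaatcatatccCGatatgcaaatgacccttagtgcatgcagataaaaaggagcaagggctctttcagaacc
Aldh1a2: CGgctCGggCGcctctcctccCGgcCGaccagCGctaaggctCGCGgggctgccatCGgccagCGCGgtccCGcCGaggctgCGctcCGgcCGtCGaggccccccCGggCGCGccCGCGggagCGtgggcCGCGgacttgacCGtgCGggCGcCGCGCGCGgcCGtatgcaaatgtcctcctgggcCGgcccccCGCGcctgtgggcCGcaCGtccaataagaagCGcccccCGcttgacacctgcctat
Most CpGs of Crabp1 lie in the part nearest to the start site, whereas Aldh1a2 has them throughout and Aldh1a1 has a lone CpG.

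**Figure D4:**
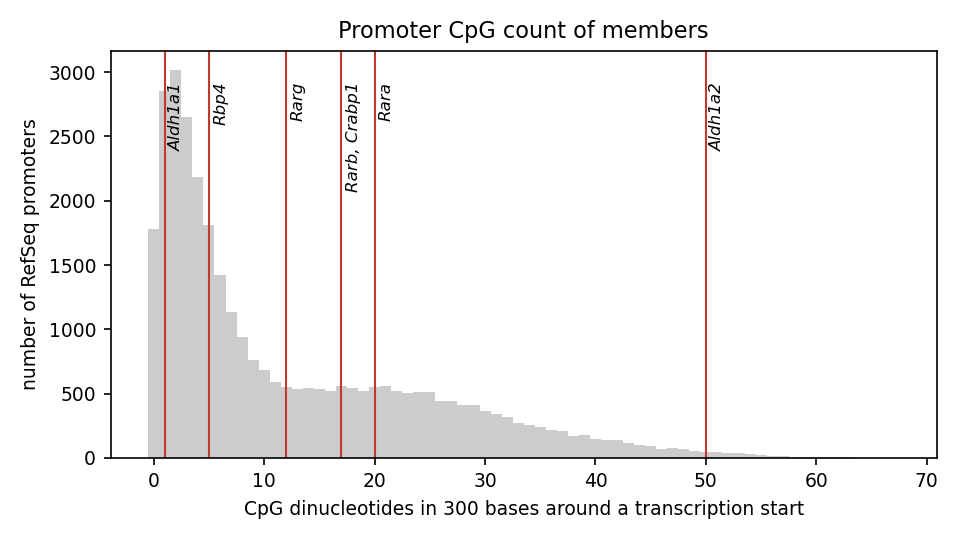
Number of RefSeq promoters (grey bars, y axis) by their count of CpG dinucleotides in 300 bases around the transcription start (x axis), with red lines at the counts of 7 members. Aldh1a1 stands at 1 and Aldh1a2 at 50, while Crabp1, lower in Dnmt1-/- MEFs, and Rarb share a count of 17.

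The rest of the retinoid pathway was described by 6 lists of other genes. Of 81 listed symbols 78 were found, and 48 of them passed the minimum. Of these 48, 5 passed 2-fold upwards and 8 downwards in Dnmt1-/- MEFs, which together is 27.1%, against 19.4% of all genes kept. Their median change was -0.27, and 35 stayed within 2-fold. These lists were drawn up with earlier results of these data known, and the counts are a description.

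Of 8 genes found for retinol uptake, transport and storage, 3 passed the minimum, with 1 higher, 1 lower and 1 within 2-fold. Among all genes kept, 8.47% were higher and 10.9% lower. Rbp2, a retinol carrier known from the intestine, was listed at 0 in Dnmt1+/+ and was at 3.22 RPKM in Dnmt1-/- MEFs. Lrat, which stores retinol as esters, was listed at 0 in both libraries, and Stra6, the receptor for RBP4, was at 0.0786 RPKM in Dnmt1+/+ and 0.343 RPKM in Dnmt1-/-.

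Of the retinol and retinaldehyde oxidoreductases and the carotenoid cleavage enzymes, listed together, 11 were counted. The first step of retinoic acid synthesis is catalysed in embryos mainly by RDH10, and Rdh10 rose from 2.05 to 7.85 RPKM. Dhrs9, which encodes a related dehydrogenase, rose from 1.07 to 4.21 RPKM. Aldh1a7 was the lone counted gene of this list that fell more than 2-fold. Adh5 had the highest level, with 66.5 RPKM in Dnmt1+/+ and 51.1 RPKM in Dnmt1-/- MEFs. Dhrs3, which turns retinaldehyde back to retinol, was at 10.8 and 11.1 RPKM. Of the CYP26 enzymes that clear retinoic acid, Cyp26b1 rose from 0.355 to 2.64 RPKM, while Cyp26a1, at 0.0896 and 0 RPKM, and Cyp26c1, at 0.0792 and 0.457 RPKM, remained under the minimum. Cyp26b1 and Rbp2 passed the minimum only through the Dnmt1-/- library and Aldh1a7 only through the Dnmt1+/+ library, so their direction was in part fixed by it.

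Of the nuclear partners and the carrier listed with them, 4 of 5 genes passed the minimum, and 1 of these changed more than 2-fold. Rxra was at 22.4 RPKM in Dnmt1+/+ and 11.2 RPKM in Dnmt1-/-, a change of -0.99 that was just short of 2-fold, and Rxrb was at 21.4 and 14.9 RPKM. Rxrg was listed at 0 in both libraries. Fabp5, a carrier that can take retinoic acid to the receptor encoded by Ppard, fell from 126.5 to 28.2 RPKM, and Ppard was at 12.0 and 9.72 RPKM. All 15 corepressor and coactivator genes passed the minimum, and 14 of them stayed within 2-fold, as did Hdac3, the highest, at 50.5 and 41.2 RPKM. The exception was the coactivator Ncoa3, which fell from 7.78 to 3.29 RPKM.

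Genes known to respond to retinoic acid did not move in 1 direction. Of 24 such genes 14 passed the minimum, with 1 higher, 4 lower and 9 within 2-fold, and a median change of -0.31, against 8.47% higher, 10.9% lower and a median of -0.14 over all genes kept. Nr2f1, which encodes an orphan nuclear receptor, fell from 8.95 to 1.68 RPKM, and Tgm2, encoding a transglutaminase, from 8.28 to 2.87 RPKM. Hoxb4 fell from 2.83 to 0.224 RPKM and Cd38 from 1.16 to 0.0929 RPKM, and both passed the minimum only through the Dnmt1+/+ library. Meis2 had the highest level of this list, 20.2 RPKM in Dnmt1+/+ and 11.8 RPKM in Dnmt1-/-, while Stra8, Hoxb1, Tbx5 and Fgf8 were listed at 0 in both.

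**Figure D5:**
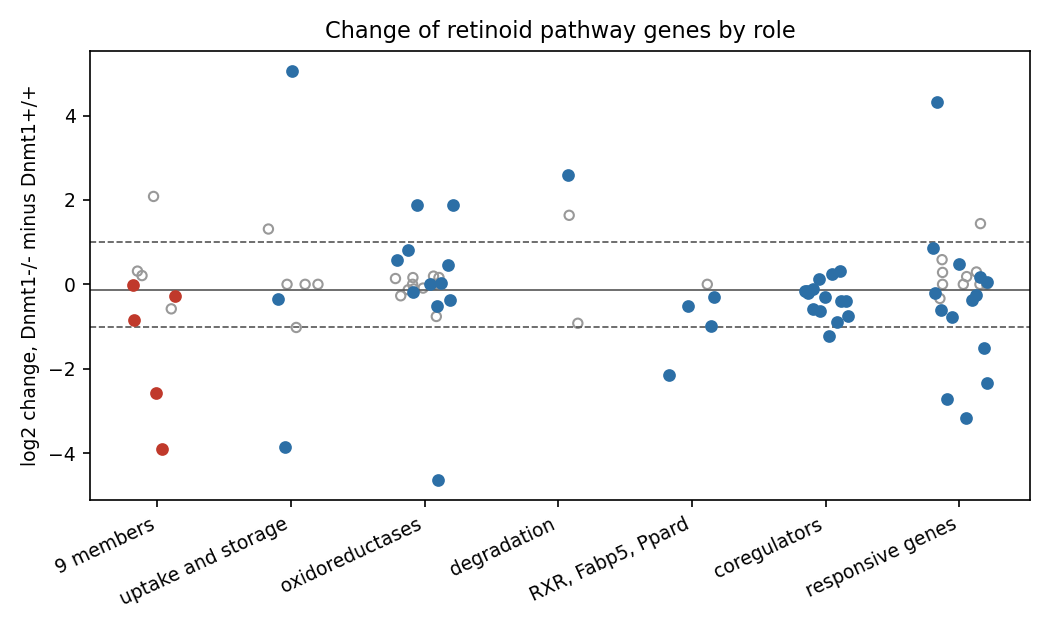
Change of each gene, Dnmt1-/- minus Dnmt1+/+ on the log2(RPKM + 0.1) scale (y axis), for the 9 members (red) and the 6 pathway lists (blue), with open grey circles for genes that did not pass the minimum. Dashed lines mark 2-fold and the solid line the median of all genes kept, -0.14, and the 15 coregulators lie close together while single genes of the other lists lie far out in both directions.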

How the data were processed

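Strand-specific mRNA-seq of 1 Dnmt1+/+ and 1 Dnmt1-/- MEF library gave 50 bp single-end reads. Per the submitters' processing notes and the study's methods, the authors aligned reads with TopHat (mm9 build), used Cufflinks for transcript assembly and deposited RPKM values from Cuffdiff, 1 column per library, with a status per entry. Program versions, further scaling between libraries and the use of strand in counting are not given in the sources used here, and the RPKM values carry no depth. Entries without a symbol held 95.7% and 95.9% of the summed RPKM of status OK entries. Genes were kept with status OK, a symbol and at least 1 RPKM in either library, and changes were computed as log2(RPKM + 0.1) with a 2-fold threshold and no test, since there is 1 library per genotype. Loci were converted to 1-based mm9 coordinates and lay within the chromosomes of NCBIM37 (mm9) for all 22 chromosome names found in it. RefSeq promoter sequences (GRCm38.p6 table) were placed on mm9 by exact match.

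The members and lists were chosen with earlier results of these data known. Named were all members, the pathway genes changed more than 2-fold, the highest gene of each list and Dnmt1, and other genes named were chosen after their values were seen. A few genes that this rule would name are not reported here but stand in the counts. Flanking genes and 3 gene families were added after the table was seen. Alternatives were pseudocounts of 1, 0.01 and none, other minimum RPKM values, 3 scalings, and thresholds of 1.5-fold and 4-fold. Calculations used Python 3.11.15, numpy 2.4.6 and pandas 2.3.3, and figures matplotlib 3.10.9.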

Additional observations from a re-analysis of the deposited data

How the results depend on the processing

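The 2 members counted as lower stayed 2 in number under the alternatives tried, except at 1.5-fold, where there were 3. No member was counted as higher, except for 1, Rbp4, with no filter on low RPKM and with a minimum of 0.1 RPKM (chosen after seeing the data). The 5 higher pathway genes became 3 without a pseudocount, where genes listed at 0 drop out, 3 at 4-fold, 8 with no filter and 8 with a minimum of 0.1 RPKM. The 8 lower ones became 14 at 1.5-fold and 4 without the list of responsive genes. Of all genes, the 952 higher became 1475 with no filter, 1475 with a minimum of 0.1 RPKM, 1580 at 1.5-fold and 500 at 4-fold, and the 1225 lower became 801 with a pseudocount of 1, 2670 at 1.5-fold and 387 at 4-fold. Other counts stayed within 1.5 times. Subtracting the median shifted all changes by 0.14. The other 2 scalings shifted them by up to 0.02 and 0.04, and by less at low RPKM because of the offset. Among members, Rbp4 was no longer past 2-fold with a pseudocount of 1, Aldh1a2 passed it with 0.01 and Aldh1a3 with 0.01 or none. No paired analysis was possible because each genotype has 1 library. Without counts, the precision of members under 1 RPKM is unknown.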

Other observations

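Relatives of the members were examined in 3 families chosen after the table had been seen, and the values are a description of these 2 libraries. CRABP1 and CRABP2 belong to the intracellular lipid-binding proteins, small carriers of fatty acids and retinoids. Of 15 genes of this family 7 passed the minimum, and 6 of these 7 were changed more than 2-fold, against 19.4% of all genes kept. Crabp1 and Fabp5, both lower in Dnmt1-/-, had 129.5 and 126.5 RPKM in Dnmt1+/+ MEFs. The higher genes were the fat and muscle carriers Fabp4, from 0.459 to 6.74 RPKM, and Fabp3, from 0.550 to 1.81 RPKM, and Rbp2, which was listed at 0 in Dnmt1+/+. Since these 3 passed the minimum only through the Dnmt1-/- library, their direction was fixed by it. The summed RPKM of the family was 297.9 in Dnmt1+/+ and 65.9 in Dnmt1-/-.

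Among 49 nuclear receptor genes 25 passed the minimum, with 5 higher, 4 lower and 16 within 2-fold in Dnmt1-/- MEFs, against 8.47% higher and 10.9% lower among all genes kept. Rara and Rarg were among the 16. Lower receptors included Vdr, the vitamin D receptor, from 9.09 to 1.72 RPKM, Nr2f1 and Nr6a1. Pparg, which drives fat cell differentiation, rose from 1.30 to 5.79 RPKM. The bile acid receptor Nr1h4 and the oestrogen receptor Esr1 were listed at 0 in Dnmt1+/+ and were at 6.18 and 1.62 RPKM in Dnmt1-/-. These 2 and Rorb passed the minimum only through the Dnmt1-/- library, and Nr6a1 only through the Dnmt1+/+ library.

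Of 20 aldehyde dehydrogenase genes 15 passed the minimum, with 3 higher and 4 lower, or 46.7% changed against 19.4% of all genes kept. The 4 include Aldh1a1 and Aldh1a7, which share sequence. Apart from Aldh1a1 and Aldh1a7, the lower genes were the mitochondrial folate enzyme Aldh1l2, from 67.8 to 15.1 RPKM, and the proline synthesis enzyme Aldh18a1, from 104.1 to 41.8 RPKM. Aldh3a1 rose from 0.313 to 5.31 RPKM, Aldh3b1 from 2.35 to 13.2 RPKM and Aldh1l1 from 0.213 to 1.72 RPKM, of which Aldh3a1 and Aldh1l1 passed the minimum only through the Dnmt1-/- library. Aldh2, which clears acetaldehyde, had the highest level, 126.1 RPKM in Dnmt1+/+ and 158.4 RPKM in Dnmt1-/-.

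On both sides of each member the nearest 2 entries with a symbol and status OK were examined, also after the table had been seen. Of these 36 genes 31 passed the minimum, with 4 higher, 3 lower and a median change of 0.16, against 8.47% higher, 10.9% lower and a median of -0.14 over all genes kept. Among the higher genes, Dnaja4 and Gcom1 passed the minimum only through the Dnmt1-/- library, and among the lower ones Aldh1a7 only through the Dnmt1+/+ library. Igfbp4, which codes for an IGF binding protein and lies 66.3 kb from Rara, rose by 2.99 on the log2 scale, and Nes, encoding nestin and 17.7 kb from Crabp2, by 1.33. Top2b, a topoisomerase gene 0.053 kb from Rarb, fell by 1.24 from 85.6 RPKM.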
